A study of Mus musculus with 6 samples.

Results

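The genes described here encode the phagocyte NADPH oxidase and the enzymes that act on its product or beside it: Cybb, Cyba, Ncf1, Ncf4, Rac1 and Rac2 of the oxidase, the superoxide dismutases Sod1 and Sod2, and the inducible nitric oxide synthase Nos2. They were taken by symbol from the count table, and all 9 had a row among its 35976 symbols. Of these, 8 passed the filter on low counts, which left 10636 genes tested, and Nos2 did not pass. Polyadenylated RNA of RAW264.7, an established mouse macrophage-like line, was counted at the 3′ end in 6 libraries: 3 of untreated cells (control, with no vehicle named) and 3 of cells kept with itaconate for 24 h, whose dose and chemical form the labels do not give. Whether the 3 libraries of each group derive from independent cultures is not in the labels. The p-values therefore measure only the spread between these libraries, which may be technical.

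The oxidase is the enzyme by which phagocytes make superoxide from oxygen and NADPH. Its membrane part is a flavocytochrome of a large catalytic subunit, the product of Cybb, and a small stabilising subunit, the product of Cyba. On activation, a cytosolic complex that includes the products of Ncf1 and Ncf4 and a GTP-loaded Rac protein joins it at the phagosome or plasma membrane. Superoxide dismutases turn superoxide into hydrogen peroxide, in the cytosol (Sod1) or in mitochondria (Sod2). Nos2 makes nitric oxide, which reacts with superoxide to give peroxynitrite. Nos2 is known as a gene that macrophages switch on after stimulation with interferon or bacterial products.

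The libraries held 5202626 to 6098934 counts, so the floor of 3 counts lay between 0.487 and 0.565 CPM (read counts scaled to library size with TMM factors). Floors and intervals cover counting error alone. They may understate even that, because PCR copies of 1 molecule cannot be recognised in reads that carry no identifier. Log2 CPM correlated across genes at 0.963 to 0.97 within groups and 0.93 to 0.934 between them, and no library stood apart from its group. The labelled cell type was checked against 9 macrophage markers, all of them tested: Csf1r, the M-CSF receptor, lay at 3693 ± 387 CPM in control and 1837 ± 20.4 CPM in itaconate libraries, and Adgre1, the F4/80 antigen, at 236.7 ± 8.70 and 209.9 ± 27.8 CPM (SD, n = 3). Their summed level ran from 8838 to 10167 CPM in control and from 6519 to 6950 CPM in itaconate libraries. Of the 9 markers, 5 were lower, 1 higher and 3 not called. This was 66.7% called, against 21.9% of all genes tested. Of the neutrophil markers, Mpo, Camp and Ly6g had 0 counts, and the list summed to between 5.41 and 6.50 CPM in every library. Csf3r of this list had 47 counts in control and 70 in itaconate libraries and was not called, and Elane had 20 and 0. B cell and epithelial lists summed to at most 1.05 and 1.12 CPM. T and NK cell markers summed to 1.62 to 4.85 CPM in control and 2.27 to 7.47 CPM in itaconate libraries, with Cd3e, Cd8a and Ncr1 at 0. Fibroblast markers summed to 2.51 to 3.73 CPM and 0.753 to 2.62 CPM, with Col3a1, Dcn and Lum at 0.

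The comparison asked which of these transcripts differ after exposure to itaconate. The large catalytic subunit gene Cybb fell 2.78-fold and the regulatory subunit gene Ncf4 fell 2.25-fold. Sod1 rose by 23.1% and Cyba by 16.4%. Ncf1, Rac1, Rac2 and Sod2 did not pass the test, and Nos2 had at most 5 counts in a library and was not tested. Calls required an adjusted p under 0.05 in edgeR's quasi-likelihood F test, with adjustment over all 10636 genes, and 2 members were called higher and 2 lower. Over all genes tested, 21.9% were called, 10.7% higher and 11.2% lower. The libraries of both groups did not overlap for 5 of the 8 tested members, against 35.6% of all genes tested. The median log2 fold change was -0.08 over the 8 tested members and -0.01 over all genes.

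**Figure D1:**
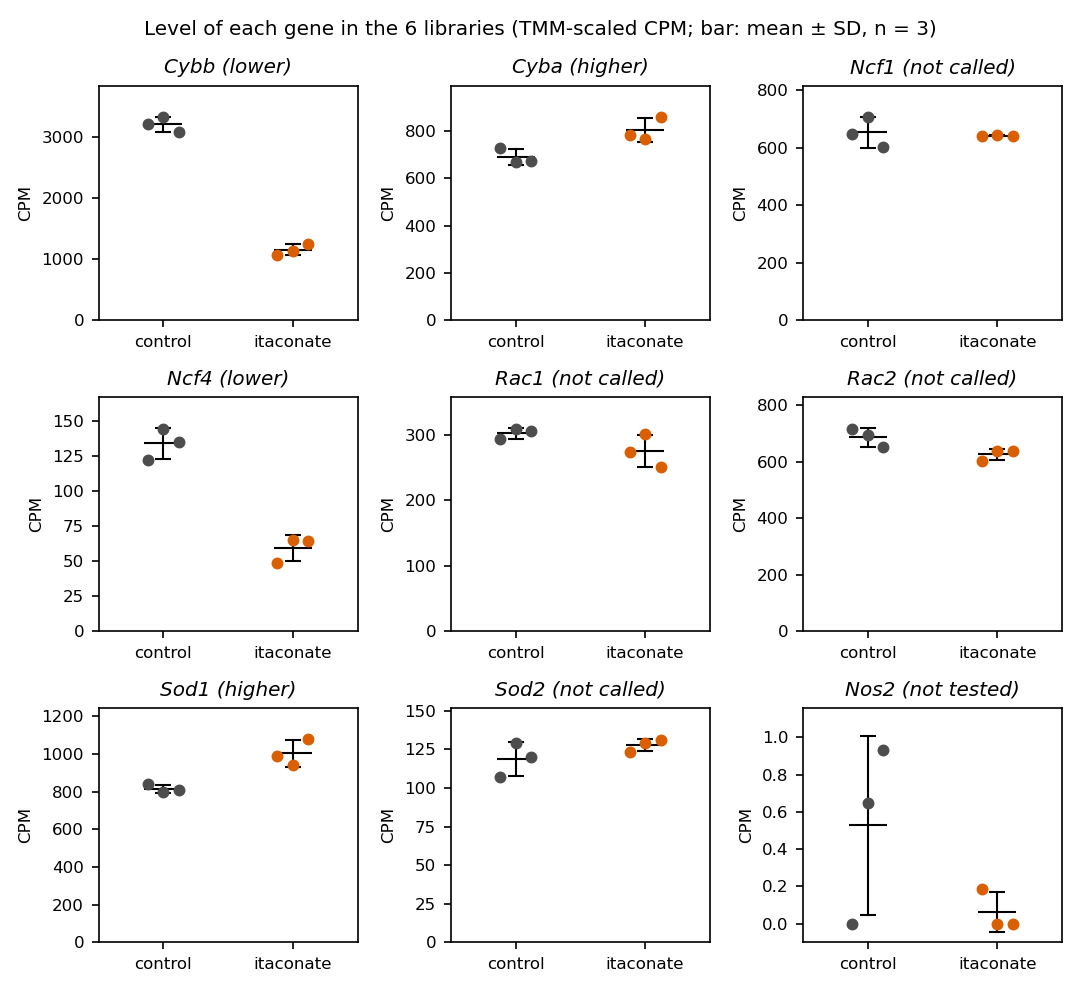
TMM-scaled CPM (vertical axes, linear, each with its own range) of the 9 genes in 3 control (grey) and 3 itaconate (orange) libraries; points are libraries and bars the mean ± SD. Cybb and Ncf4 separate widely, with itaconate libraries at 1078 to 1251 and 49.1 to 65.2 CPM, while Cyba and Sod1 are higher by a smaller margin.

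Cybb, which encodes gp91phox and lies on the minus strand of chromosome X from 9435252 to 9487766 (GRCm38.p6, the assembly of mm10), had 3221, 3339 and 3093 CPM in the control libraries. In the itaconate libraries it had 1078, 1145 and 1251 CPM. The lowest control library was well above the highest itaconate library. The log2 fold change was -1.47 ± 0.07 (SE, edgeR adjusted p = 2.23e-22), from 56380 counts in control to 19004 in itaconate libraries. Only 4.44% of all tested genes had a larger log2 fold change in either direction. The fall was seen together with the lower summed macrophage markers given above, whose part in it was not tested. In such bulk RNA, fewer cells of a kind and less transcript per cell cannot be told apart.

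Cyba, which encodes p22phox and lies on the minus strand of chromosome 8 from 122424771 to 122432940, had 730.0, 669.5 and 675.8 CPM in control and 785.4, 768.9 and 861.7 CPM in itaconate libraries. All itaconate libraries were above all control libraries, by a narrow margin. Its log2 fold change was 0.22 ± 0.08 (SE, edgeR adjusted p = 0.0328), and 59.2% of the tested genes had a larger one in either direction. The call was lost when libraries were scaled by their totals (adjusted p = 0.1002) and when a library was left out: control replicate 2 (0.136), control replicate 3 (0.0937) or, among the itaconate libraries, replicate 3 (0.129).

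Both flavocytochrome genes were also compared within each library, where no scaling between libraries enters. The ratio of Cybb to Cyba counts was 4.41, 4.99 and 4.58 in the control libraries and 1.37, 1.49 and 1.45 in the itaconate libraries. On the log2 scale the mean ratio went from 2.22 ± 0.09 to 0.52 ± 0.06 (SD, n = 3), a difference of -1.70 (exact permutation test, two-sided, p = 0.1, which is the lowest value reachable with 3 libraries a group). The ratios of the groups did not overlap, and the Cybb and Cyba transcripts therefore changed unequally in these libraries.

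**Figure D2:**
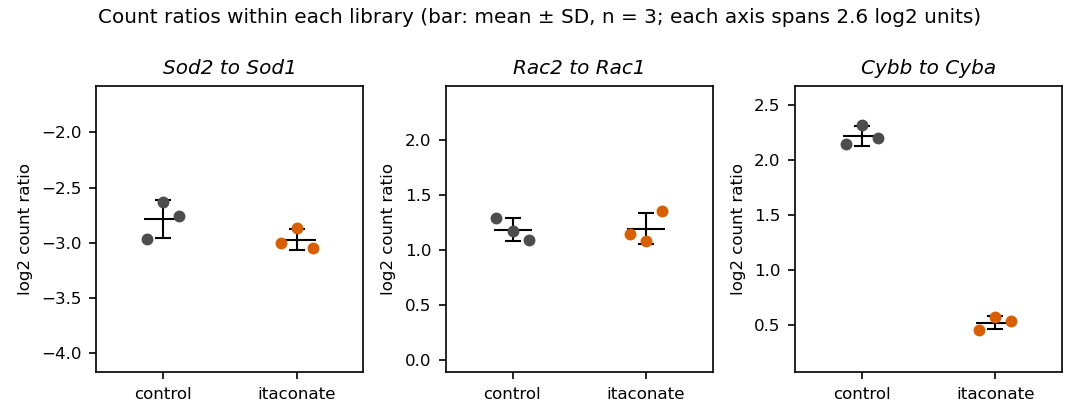
Log2 ratio of counts within each library for 3 pairs of genes, with 3 control (grey) and 3 itaconate (orange) libraries per panel; points are libraries, bars the mean ± SD, and each vertical axis spans the same width. The Cybb to Cyba ratio drops from 2.22 to 0.52, while the Sod2 to Sod1 and Rac2 to Rac1 ratios overlap between the groups.

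Ncf4 encodes p40phox, which binds phosphatidylinositol 3-phosphate on phagosomes, and lies on the plus strand of chromosome 15 from 78244164 to 78262582. It had 122.4, 144.7 and 135.5 CPM in control libraries and 49.1, 65.2 and 64.3 CPM in itaconate libraries. The groups were far apart, with itaconate replicate 1 the lowest library. The log2 fold change was -1.17 ± 0.12 (SE, edgeR adjusted p = 8.79e-11), and 6.81% of tested genes had a larger one in either direction. Together with Cybb, Ncf4 was lower in all 13 of the alternative analyses, with log2 fold changes between -1.53 and -1.43 for Cybb and between -1.24 and -1.05 for Ncf4.

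Ncf1 encodes p47phox, the organiser subunit whose phosphorylation starts assembly, and lies on the minus strand of chromosome 5 from 134220053 to 134229628. It had 649.2, 708.7 and 602.3 CPM in control and 641.6, 643.0 and 642.6 CPM in itaconate libraries. All itaconate values lay inside the control range. Its log2 fold change was -0.02 ± 0.08 (SE, edgeR adjusted p = 0.869). The exons of Ncf1 share 408 bases with Gtf2ird2 on the opposite strand, and the strand setting of the counting is not given in the sources used here. Gtf2ird2 was not called either, at 33.9 CPM in control and 30.8 CPM in itaconate libraries.

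The Rac proteins are small GTPases: Rac1 is found in nearly all cells, and Rac2 is largely restricted to blood cells and is the form used by the neutrophil oxidase. Rac1, on the minus strand of chromosome 5 from 143505481 to 143528031, had 292.9, 308.5 and 306.0 CPM in control and 273.2, 300.3 and 250.9 CPM in itaconate libraries. These ranges overlapped, and the log2 fold change was -0.14 ± 0.09 (SE, edgeR adjusted p = 0.284). The exons of Rac1 share 2309 bases with Daglb on the opposite strand, and Daglb had a log2 fold change of -0.38 ± 0.16 (adjusted p = 0.0720).

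Rac2, on the minus strand of chromosome 15 from 78559169 to 78572783, had 718.1, 693.7 and 651.2 CPM in control and 603.5, 637.0 and 640.0 CPM in itaconate libraries. Every itaconate library was below every control library, but the log2 fold change of -0.13 ± 0.08 did not pass the test (SE, edgeR adjusted p = 0.230), nor did it under any of the 13 alternatives, whose lowest adjusted p was 0.0636. The Rac2 to Rac1 count ratio was 2.45, 2.25 and 2.13 in control and 2.21, 2.12 and 2.55 in itaconate libraries, and the groups overlapped. The log2 ratio differed by 0.01 between them (exact two-sided permutation p = 1). Without control replicate 3 or itaconate replicate 3 the difference was -0.04 or -0.07.

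Ncf4 and Rac2 lie 296586 bases apart on chromosome 15. RefSeq places 16 genes between them, of which 14 were in the count table and 5 were tested. All of these, Csf2rb2, Csf2rb, Tst, Mpst and Kctd17, were not called and are named here by position, with log2 fold changes from -0.41 for the cytokine receptor gene Csf2rb (adjusted p = 0.0945) to 0.28 for the sulfurtransferase gene Mpst. Of Ncf4, Rac2 and these 5 genes, only Ncf4 was called, where 21.9% of all genes tested were called. So few genes cannot show whether Ncf4 differs from its surroundings. Tst lay at only 2.75 CPM in control and 2.42 CPM in itaconate libraries.

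**Figure D3:**
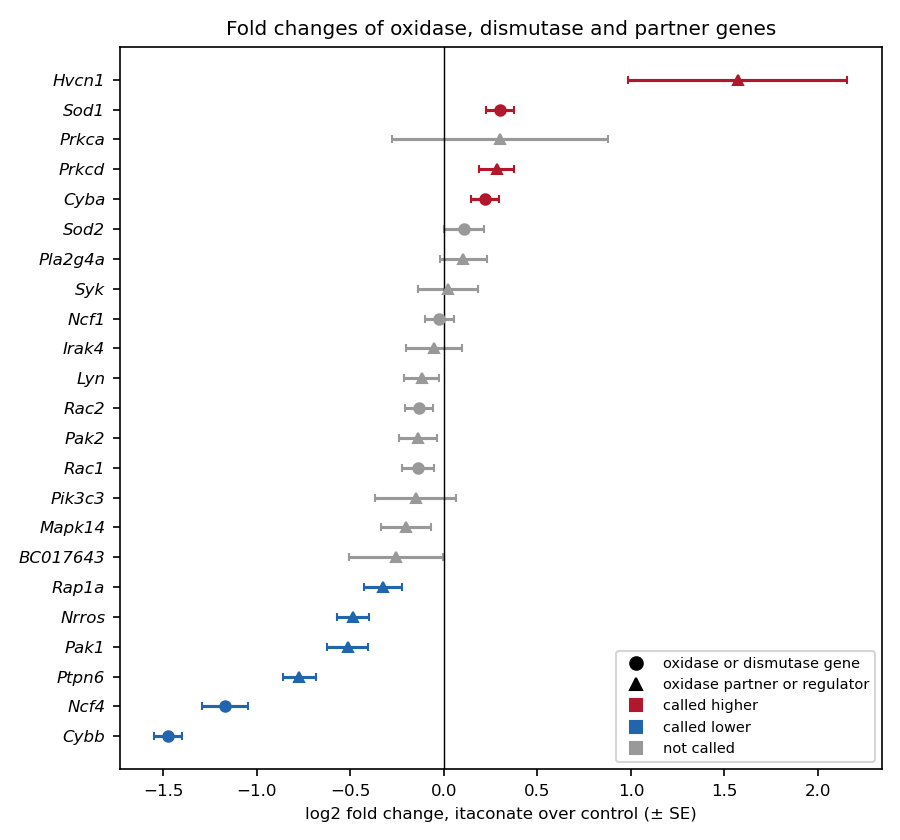
Log2 fold change of itaconate over control (horizontal axis, ± SE) for the 8 tested genes of the set (circles) and 15 of the 16 tested oxidase partners and regulators (triangles), ordered by value; red marks genes called higher, blue called lower and grey not called. Cybb and Ncf4 are the lowest of these genes and Hvcn1, with a wide error, the highest.

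Sod1 encodes the copper and zinc dismutase of the cytosol and lies on the plus strand of chromosome 16 from 90220762 to 90226333. It had 840.2, 796.9 and 812.0 CPM in control libraries and 988.2, 943.0 and 1083 CPM in itaconate libraries, and every itaconate library was above every control library. The log2 fold change was 0.30 ± 0.08 (SE, edgeR adjusted p = 0.00224), and the call held in all 13 alternatives, between 0.24 and 0.34. Of the 50-base words in its annotated 3′ end, 30.2% also occur in Gm8566, which has no row under that symbol in the count table. Reads from Gm8566 could therefore have been counted for Sod1, and shared reads could have been left out.

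Sod2 encodes the manganese dismutase of mitochondria and lies on the plus strand of chromosome 17 from 13007839 to 13018119. It had 107.5, 129.0 and 120.0 CPM in control and 123.2, 129.3 and 131.1 CPM in itaconate libraries. The ranges overlapped, and the log2 fold change was 0.11 ± 0.11 (SE, edgeR adjusted p = 0.546). The count ratio of Sod2 to Sod1 was 0.128, 0.162 and 0.148 in control and 0.125, 0.137 and 0.121 in itaconate libraries. The log2 ratio differed by -0.19 (exact two-sided permutation p = 0.2), so an unequal change of both dismutase transcripts was not shown. Sod3, the extracellular dismutase, had 0 counts in all libraries but itaconate replicate 3, which had 7.

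Nos2, on the plus strand of chromosome 11 from 78920787 to 78960226, had 0, 4 and 5 counts in control and 1, 0 and 0 counts in itaconate libraries. The groups overlapped at 0, and the highest library reached 0.933 CPM. Over each group this was 9 counts against 1, a ratio of 8.74 control over itaconate with an exact conditional 95% interval from 1.21 to 383, which covers counting error only. Nos2 was not tested in the main analysis, and edgeR without a filter on low counts gave an adjusted p of 0.531. The counting interval lay above a ratio of 1, but with the spread between libraries taken into account no difference in Nos2 was detectable at this depth.

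The stretches of DNA before the transcription start are shown for Cybb and Cyba, whose products form 1 complex but whose transcripts changed unequally, for Ncf1, which was not called, and for Sod1, which rose. They are the 150 bases before the start in GRCm38.p6 from RefSeq, 5′ to 3′ on the gene's strand, and a window was found for 5 of the 9 members (Cybb, Cyba, Ncf1, Sod1 and Sod2). The windows are chrX:9469325-9469474 (minus strand), chr8:122432941-122433090 (minus strand), chr5:134229626-134229775 (minus strand) and chr16:90220612-90220761 (plus strand). The Cybb start in this table lies within the RefSeq span of the gene given above, so transcripts that begin further upstream are not represented. Capitals mark matches on either strand to the patterns named after them.
Cybb: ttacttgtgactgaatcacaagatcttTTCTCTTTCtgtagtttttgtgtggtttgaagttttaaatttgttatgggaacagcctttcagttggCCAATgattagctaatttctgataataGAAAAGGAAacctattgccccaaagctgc
Cyba: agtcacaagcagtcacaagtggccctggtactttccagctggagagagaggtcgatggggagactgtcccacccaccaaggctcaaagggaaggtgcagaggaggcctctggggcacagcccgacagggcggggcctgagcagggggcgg
Ncf1: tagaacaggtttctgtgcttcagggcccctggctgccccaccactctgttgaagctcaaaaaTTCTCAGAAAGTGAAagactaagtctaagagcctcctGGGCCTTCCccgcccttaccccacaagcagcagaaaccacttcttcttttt
Sod1: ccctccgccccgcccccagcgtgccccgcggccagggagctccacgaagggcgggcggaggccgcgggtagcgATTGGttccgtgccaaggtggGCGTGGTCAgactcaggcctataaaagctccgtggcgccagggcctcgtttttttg

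The patterns searched were GAGGAA (the core bound by PU.1, a myeloid transcription factor), GAAANNGAA (interferon response), TGACNNNGC (the antioxidant response core bound by NRF2), TTCNNNGAA (STAT), GGGNNTTCC (NF-kB) and CCAAT. Positions are counted from the start, with -1 the base before it. The Cybb window holds GAAANNGAA at -123 to -115 and -29 to -21, where the latter reads on the gene's strand, and CCAAT at -56 to -52. In the whole window of 250 bases before to 50 after the start, Cybb also had GAAANNGAA at -167 to -159 and GAGGAA on the other strand at 10 to 15. Of all 32851 windows in the table, 8.56% held GAAANNGAA and 28.3% GAGGAA.

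The Ncf1 window holds TTCNNNGAA at -88 to -80, overlapping GAAANNGAA at -82 to -74, and GGGNNTTCC at -51 to -43. The Sod1 window holds TGACNNNGC on the other strand at -56 to -48, a pattern present in 12.4% of all windows, and CCAAT on the other strand at -77 to -73. TTCNNNGAA was present in 8.3%, GGGNNTTCC in 5.82% and CCAAT in 37.4% of windows. The Cyba window held none of these letter patterns. Sod2, which was not called and whose window is not printed, had CCAAT at -12 to -8. Further upstream it had GAGGAA at -203 to -198 and TTCNNNGAA at -185 to -177. A match describes the letters and not binding.

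By a rule set for the gene with the largest called change, the genes most like Cybb over the 6 libraries were sought among 9198 genes with a mean over 5 CPM. They were the kinetochore motor gene Cenpe (Pearson r of log2 CPM 0.9997), C330027C09Rik (0.9993) and the tyrosine kinase gene Fes (0.9987), all lower in itaconate libraries, by 1.99, 2.55 and 1.11 on the log2 scale. For Ncf1, the member with the smallest change, they were Svbp (0.991), Pex7 (0.983) and Tmx1 (0.969), none of them called. These correlations describe 6 libraries in 2 groups, so for Cybb they mostly reflect the difference between the groups. For Ncf1 they are the highest among 9198 genes over only 6 libraries, and whether they exceed chance was not tested.

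Genes that steer the oxidase or work beside it were read from the same analysis. Of 16 tested oxidase partners and regulators, 3 were higher, 4 lower and 9 not called. This was 43.8% called, against 21.9% of all genes, with a median log2 fold change of -0.13 against -0.01, and 4 of the 7 calls held in all 13 alternatives. Ptpn6, the phosphatase SHP-1, fell from 289.2 ± 13.0 to 169.3 ± 6.59 CPM (SD, n = 3). Nrros, a negative regulator that lowers the stability of the Cybb protein, fell from 389.7 ± 29.5 to 278.4 ± 12.3 CPM, and Pak1, a kinase activated by Rac that phosphorylates p47phox, from 134.3 ± 4.51 to 94.1 ± 5.08 CPM. The edgeR adjusted p-values of these falls were 1.67e-09, 1.57e-05 and 0.000282. Hvcn1, the proton channel that balances the charge moved by the oxidase, was called higher at 1.82 against 5.46 CPM (adjusted p = 0.0474), but in only 1 of 13 alternatives. BC017643, the earlier symbol of Cybc1, whose product helps to assemble the flavocytochrome, had a log2 fold change of -0.26 ± 0.25 and was not called. Prkcb had 0 counts in all libraries.

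Rac is switched on by exchange factors and off by GTPase-activating proteins, and GDI proteins hold it in the cytosol. Of 19 tested genes of this list, 4 were lower, 0 higher and 15 not called (21.1% called, close to the share among all genes), with a median of -0.17, and all 4 calls held in the 13 alternatives. Dock2, the main Rac exchange factor of blood cells, fell from 263.1 ± 19.4 to 152.7 ± 13.5 CPM (SD, n = 3). The PIX exchange factor genes Arhgef6 and Arhgef7 fell by 0.46 and 0.37 on the log2 scale. Racgap1, whose product works mainly in cytokinesis, fell from 60.3 to 17.5 CPM. Tiam1, an exchange factor gene chosen here after its values were seen, had 15, 17 and 8 counts in control and 0, 4 and 0 in itaconate libraries and was not tested.

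The other NADPH oxidases were nearly absent. Of 9 genes, 7 had 0 counts in all libraries, among them Nox1, Nox4, Duox1 and Duox2, and Duoxa1 had 1 count. Noxo1, an organiser related to p47phox, was tested and not called (log2 fold change -0.77 ± 0.59, adjusted p = 0.394).

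**Figure D4:**
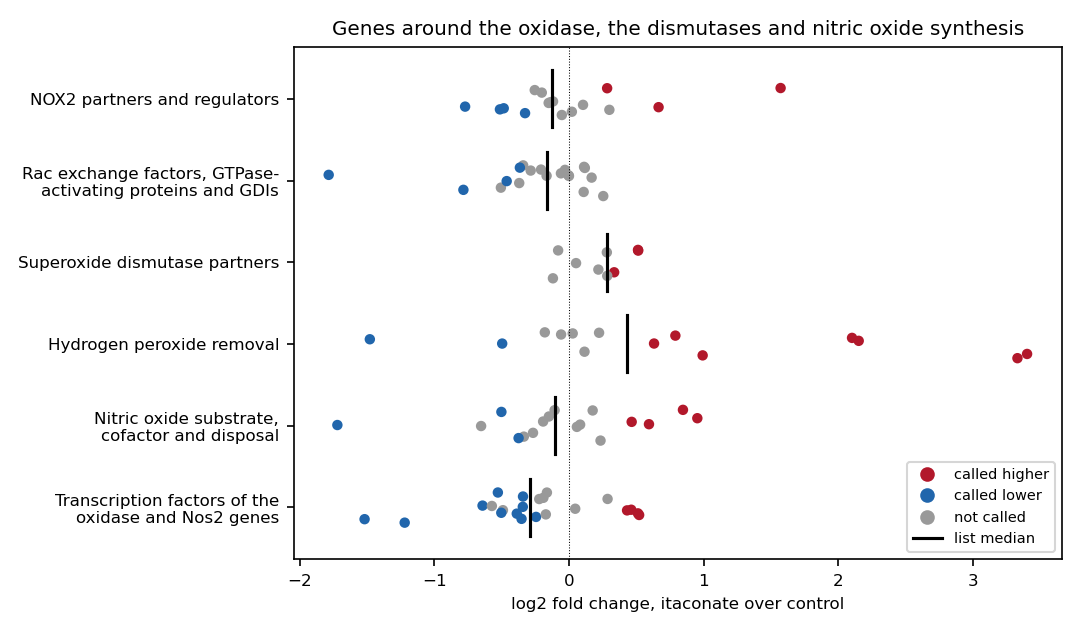
Log2 fold change of itaconate over control (horizontal axis) of every tested gene in 6 lists around the oxidase, the dismutases and nitric oxide; each point is a gene, coloured red where called higher, blue where called lower and grey where not called, and vertical bars are list medians. The hydrogen peroxide list reaches furthest to the right, and the medians of the Rac regulators and transcription factors are -0.17 and -0.29.

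Sod1 needs copper, which is delivered by its chaperone Ccs. The list of dismutase partners also holds genes that handle copper more generally. Of its 9 tested genes, 3 were higher, 0 lower and 6 not called. This was 33.3% called, against 21.9% of all genes tested, of which 10.7% were higher and 11.2% lower. With only 9 genes, 3 calls are few. The median log2 fold change was 0.28 against -0.01. Cox17, a copper chaperone for cytochrome oxidase, rose from 106.6 ± 5.79 to 152.0 ± 11.9 CPM (SD, n = 3), and the copper importer gene Slc31a1 from 70.5 ± 7.39 to 100.6 ± 9.85 CPM. The copper chaperone gene Atox1 rose by 0.33 ± 0.09 on the log2 scale, a call lost without itaconate replicate 2 (edgeR adjusted p = 0.0508). Ccs itself was not called, at 0.28 ± 0.18 (adjusted p = 0.283).

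Hydrogen peroxide, the product of both dismutases, is removed by catalase, glutathione peroxidases and peroxiredoxins. Of 14 tested genes of this list, 7 rose, 2 fell and 5 were not called. This was 64.3% called, against 21.9% of all genes tested, with a median log2 fold change of 0.43 against -0.01. Of the 9 calls, 8 held in all alternatives. Prdx1, a cytosolic peroxiredoxin, rose 4.44-fold and the thioredoxin reductase gene Txnrd1 4.29-fold, and Srxn1 and Cat rose 10.6-fold and 10.1-fold. Gpx1, a glutathione peroxidase gene chosen after its values were seen, fell from 541 to 194 CPM. The rise of Sod1 in the same libraries was 1.23-fold.

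For nitric oxide synthesis, 4 of 17 tested genes were higher, 3 lower and 10 not called. This was 41.2% called, against 21.9% of all genes tested, with a median log2 fold change of -0.11 against -0.01. Gch1, the first enzyme of the cofactor tetrahydrobiopterin, rose from 40.5 ± 3.42 to 78.2 ± 9.16 CPM (SD, n = 3), and Adh5, which reduces S-nitrosoglutathione, rose by 0.46 ± 0.11 on the log2 scale. Arg1, the arginine carrier gene Slc7a2, Ddah1 and Spsb4 had 0 counts in all libraries.

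A list of transcription factor genes was put together for the oxidase genes and Nos2, and the action of each on these genes was not tested. Of its 22 tested genes, 10 were lower, 4 higher and 8 not called. This was 63.6% called, against 21.9% of all genes tested, with a median log2 fold change of -0.29 against -0.01. Of these 14 calls, 6 held in all 13 alternatives, 5 lower and 1 higher. Spi1, which encodes PU.1, fell from 594.4 ± 35.4 to 468.3 ± 42.0 CPM (SD, n = 3, edgeR adjusted p = 0.00119). Runx1 and Fos fell by 0.64 ± 0.15 and 1.52 ± 0.25 on the log2 scale. Cebpa, a myeloid factor gene, rose from 74.3 ± 3.76 to 105.8 ± 19.0 CPM. Hoxa9 and Hoxa10 had 0 counts in all libraries.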

How the data were processed

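Each of the 6 samples (3 control, 3 itaconate) has 1 column in a table of raw counts of reads per gene symbol, which the authors deposited without normalization. Tools listed in the submitters' processing notes are HTSeq 0.6.1, STAR 2.7.5a and edgeR, with mm10 as the build. How reads were trimmed, which strand setting and annotation were used and how multimapping reads were treated is not given in the sources used here. Per the labels' protocols, RNA was extracted with TRIzol and libraries were made with the Lexogen QuantSeq FWD kit, which counts transcripts near the poly(A) tail. The header holds 2 empty cells and is split by tabs while the data lines are split by spaces, so the 6 named columns were taken in header order.

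Genes were filtered with filterByExpr (minimum count 10, minimum total 15), which left 99.74% of counts. The test was edgeR 4.0.16 (R 4.3.3) glmQLFTest with TMM and robust dispersion, group as the only term, two-sided, Benjamini-Hochberg over 10636 genes. The SE was taken as |log2 fold change| / √F. Alternatives were DESeq2 1.42.0, limma-voom (limma 3.58.1), library totals, upper-quartile scaling, no filter, at least 1 CPM in 3 libraries, a replicate block, and leaving out each library. The fit was tested on simulated data. Count ratios used exact permutation of libraries.

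Members and lists were chosen with earlier results of these data known. Of each list, the 4 called genes with the smallest p are named, or further tested genes where fewer than 2 were called, with genes at 0 in a group. Some genes that this rule names are not reported here; counts and medians of lists include them. Shared 3′ ends were searched as 50-base words in the last 500 bases of GENCODE M21 protein-coding transcripts. Positions and promoter windows are RefSeq's.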

Additional observations from a re-analysis of the deposited data

How the results depend on the processing

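The calls of Cybb, Ncf4 and Sod1, and the lack of a call for Ncf1, Rac1, Rac2 and Sod2, held in all 13 alternatives. With library totals, 1 member was called higher in place of 2, since Cyba was lost (log2 fold change 0.17, adjusted p = 0.1002). Leaving out 1 library at a time gave 1 to 2 members called higher, 0.17 to 0.26 for Cyba, -0.081 to 0.039 for Ncf1 and -0.070 to 0.064 for the difference in the log2 Rac2 to Rac1 count ratio. The sign of Ncf1 turned without control replicate 2 (0.039), and that of the ratio without control replicate 3 (-0.038) or itaconate replicate 3 (-0.070). The cause was not tested. Over all genes, 882 to 1139 were called higher and 915 to 1429 lower, and the median log2 fold change was -0.06 with library totals, its lowest value, against -0.01 in the main analysis. Same-numbered libraries deviated together at r of only -0.01, 0.02 and 0.04, so the numbers were not taken as pairs. The replicate block gave 1087 higher and 1160 lower genes and changed no call of a member. With 3 against 3 libraries, no count ratio can give an exact p under 0.1. Nos2 rests on 10 counts, so its fold is limited by depth.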
